A study of Mus musculus with 16 samples.

Results

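The genes described here are Ucp1, Cidea, Elovl3, Cox8b, Dio2, and Prdm16, 6 genes best known from brown fat, as they were read in RNA from mouse skeletal muscle. They were chosen by their measured values in these samples, as genes whose counts differed between mice and groups, and they are 6 of the 23235 gene names in the mRNA table. Whole transcriptome sequencing was carried out on muscle from 16 male C57BL/6 mice (C57BL/6J in the growth protocol), 1 library per mouse, with 4 mice in each of 4 groups. The control group received a normal diet. The HFD group received a high-fat diet with 60% fat, which was fed for 8 weeks before treatment began. The HFD + RSV group was fed the same diet and treated with resveratrol (RSV, a plant polyphenol) for 6 weeks, and the HFD + metformin group was fed the same diet and treated for 6 weeks with metformin, a drug that lowers blood glucose. All mice were 6 weeks old when purchased, and the labels name no transgene or mutant allele. Which muscle was taken, and how it was trimmed of fat, is not given in the sources used here, so all values are for whole pieces of tissue. The mice are numbered 1 to 4 within each group, and the number only names the mouse.

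Brown adipocytes burn fatty acids to make heat. UCP1 in their inner mitochondrial membrane lets protons flow back into the matrix without making ATP, and noradrenaline acting through beta-adrenergic receptors and cyclic AMP switches on both the breakdown of stored fat and the transcription of Ucp1. Beige adipocytes are fat cells of white depots that take on the same program, and skeletal muscle makes heat by other means and is not known to rely on UCP1. Of the 6 genes, Ucp1 codes for the uncoupler itself, Cidea for a protein that joins lipid droplets, Elovl3 for an enzyme that lengthens very long saturated fatty acids, Cox8b for a small subunit of cytochrome c oxidase that muscle and heart also use, Dio2 for the deiodinase that turns thyroxine into the active hormone inside the cell, and Prdm16 for a transcriptional regulator of brown fat identity.

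In the files' coordinates (GRCm38), Ucp1 is 1 transcript on the plus strand at chr8:83290352-83298452 with 6 exons, Cidea 1 transcript with 5 exons, Elovl3 1 transcript at chr19:46131897-46135307 with 4 exons, Cox8b 1 transcript on the minus strand at chr7:140898945-140900446 with 2 exons, and Dio2 1 transcript on the minus strand at chr12:90724552-90738438 with 2 exons. Prdm16 has 13 transcripts on the minus strand within chr4:154316125-154636873, whose counts were summed. The 3 most abundant Prdm16 transcripts held 22.1%, 21.8%, and 20.9% of its counts, and splitting of fragments between such overlapping transcripts by the counting program does not change the sum. RefSeq promoter windows (GRCm38.p6) were matched by symbol for 4 of the 6 genes. The 250 bases before the start are shown for Ucp1, whose level moved most between mice, for Dio2, whose level differed less, and for Cox8b, which differed least of the 6 between mice. The Dio2 start in RefSeq lies upstream of the end of the transcript in the files. Capitals mark matches to the motifs searched.

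Ucp1, chr8:83290098-83290347, plus strand: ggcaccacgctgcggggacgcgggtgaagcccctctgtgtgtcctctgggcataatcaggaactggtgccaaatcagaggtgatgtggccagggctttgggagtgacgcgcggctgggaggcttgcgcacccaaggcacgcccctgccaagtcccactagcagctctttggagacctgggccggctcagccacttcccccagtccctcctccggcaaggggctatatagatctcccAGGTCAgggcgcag

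Dio2, chr12:90739039-90739288, minus strand: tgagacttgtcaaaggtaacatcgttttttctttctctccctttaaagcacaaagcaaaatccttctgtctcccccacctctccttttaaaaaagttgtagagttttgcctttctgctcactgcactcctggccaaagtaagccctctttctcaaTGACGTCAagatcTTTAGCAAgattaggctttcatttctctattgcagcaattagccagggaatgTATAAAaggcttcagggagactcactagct

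Cox8b, chr7:140900447-140900696, minus strand: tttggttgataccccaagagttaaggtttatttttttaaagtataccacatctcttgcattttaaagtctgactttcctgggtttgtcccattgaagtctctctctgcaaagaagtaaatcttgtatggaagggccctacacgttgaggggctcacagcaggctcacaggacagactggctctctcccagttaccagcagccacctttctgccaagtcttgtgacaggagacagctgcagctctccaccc

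Both strands were searched for the cyclic AMP response element TGACGTCA, the nuclear receptor core site AGGTCA, a direct repeat of that core site with 1 base between (which contains the core site), the C/EBP motif TTGCNNAA, and the TATA box TATAAA. The Ucp1 window held 1 match, a core site that starts 14 bases before the transcription start. The Dio2 window held a cyclic AMP response element 95 bases, a C/EBP motif (minus strand, read as TTTAGCAA on the plus strand of the gene) 82 bases, and a TATA box 30 bases before the start. The Cox8b and Prdm16 windows held none of the 5. Over all 32851 promoter windows of this length, 1.55% held the cyclic AMP response element, 14.0% the core site, 0.0335% the direct repeat, 9.56% the C/EBP motif, and 12.4% the TATA box. A match is a match of letters and not a measured binding site.

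Over both deposited tables, total counts per mouse were 20281801 to 34021101, and rank correlations of gene counts between mice of a group were 0.96 to 0.977, against 0.957 to 0.978 between mice of different groups. The tissue label was checked against 12 skeletal muscle fibre markers, all of which were measured. Their summed level was 188000 to 358000 CPM (counts scaled to a common library size) over the 16 mice. Without correction for transcript length, the most counts were those of Ttn, the giant spring of the sarcomere, and Myh4, the myosin of the fastest fibres. Since the extraction text of the labels mentions retinas, 10 retina markers were also read. Only 5 had rows, and their summed level was 0.459 to 1.45 CPM. The only one with counts enough to be tested, Sag, the rod arrestin, was not called in HFD against control (log2FC -1.49 ± 0.41, adjusted P = 0.0650, edgeR, unadjusted P = 0.00274), and DESeq2 called it. White and general adipocyte markers were present in every library. All 22 had counts, none was at 0 in a whole group, and their summed level was 7500 to 20600 CPM among control mice, 2360 to 4540 among HFD mice, 3170 to 5170 among HFD + RSV mice, and 2500 to 15400 among HFD + metformin mice. The sums are weighted toward a few abundant genes and are not a measure of fat content. In HFD + metformin mouse 2, with a sum of 3100 CPM, Lpl, Cd36, Plin4, and Car3 had 781, 616, 582, and 542 CPM. Adipoq, Plin1, and Cidec had 3.67, 3.37, and 2.58 CPM in that mouse. The levels of these markers moved in part with the 6 genes, and how much of each result they carry was not tested. In bulk tissue, fewer cells of a type and less RNA per cell cannot be told apart. The labels of the HFD mice share a leading number that no other group has, its meaning is not stated, and it cannot be told apart from the diet.

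All 6 genes passed the filter on low counts. Elovl3 passed it through the control group, since no HFD mouse had more than 3 counts, so its low level in the HFD group is part of how it entered the fit. Fold changes are from a quasi-likelihood model fitted with edgeR to all genes and all 16 mice, and they are given as a description without P-values, because these counts had already chosen the genes. CPM values are scaled by TMM (trimmed mean of M-values, which corrects library size for a few dominant genes). Sums over marker lists and the genes named within them are in CPM, without correction for length, so long genes weigh more there. Elsewhere, levels of different genes are compared only as FPKM, the deposited fragments per kilobase of transcript and library size.

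**Figure D1:**
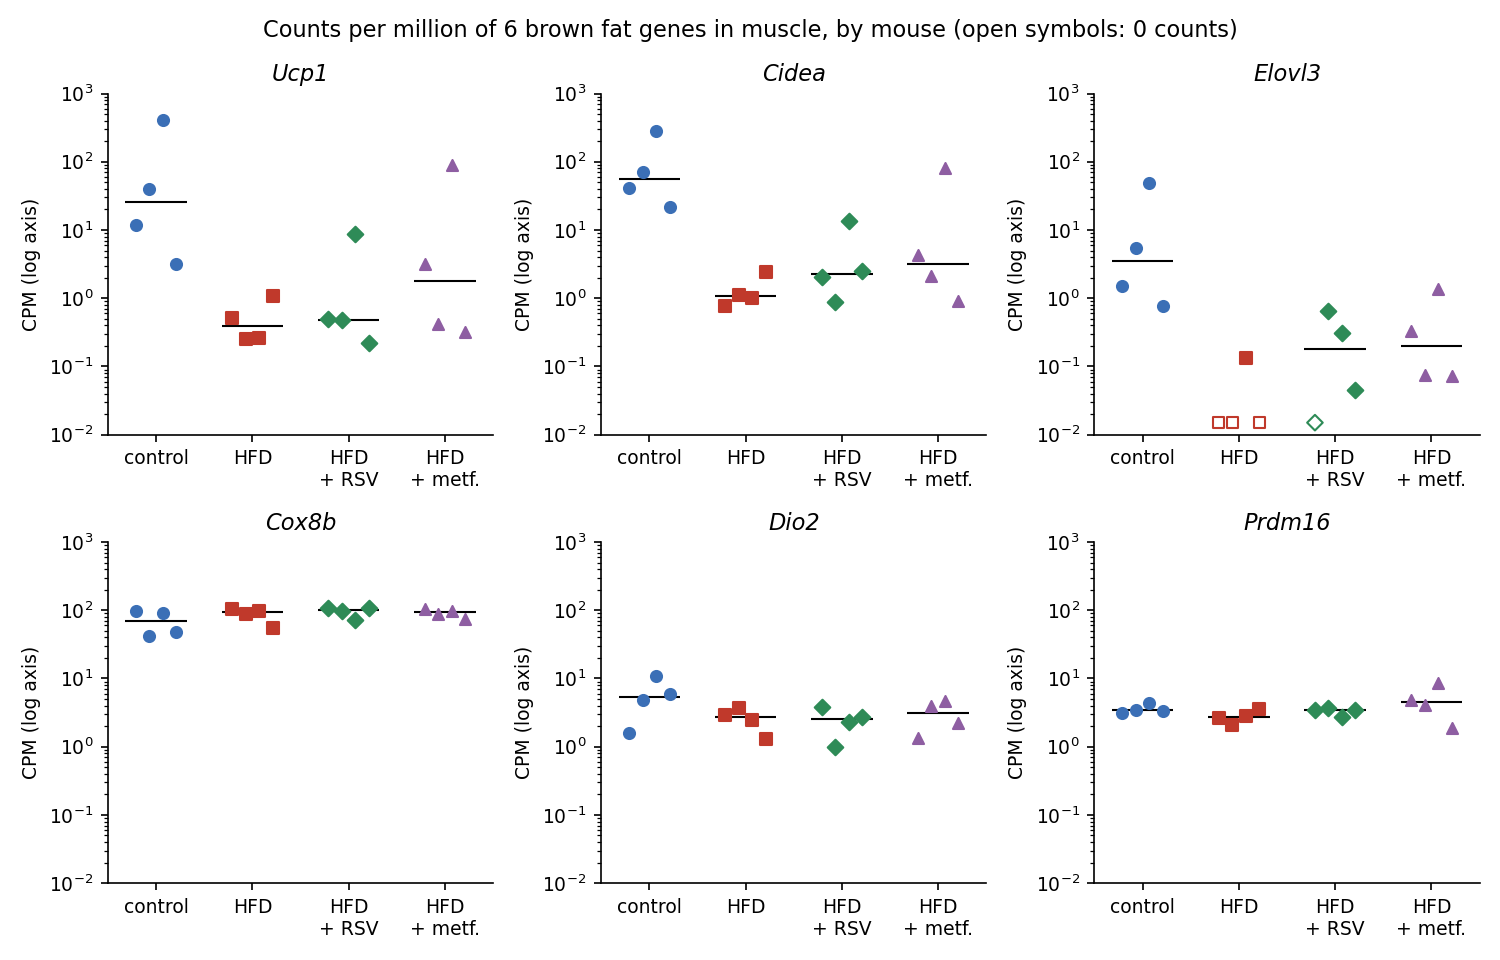
CPM (log axis) of the 6 genes in each of the 16 mice, with 1 symbol per mouse, a line at the group median (not drawn where it is 0), and open symbols at the bottom for 0 counts. Ucp1, Cidea, and Elovl3 were lower in each HFD mouse than in any control mouse, and mouse 3 of each treated group stood high in Ucp1 and Cidea, whereas Cox8b, Dio2, and Prdm16 overlapped between all groups compared.

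Ucp1 was the most variable of the 6. In the control group it had 212, 1239, 10432, and 60 counts, or 11.9, 39.9, 408, and 3.12 CPM. In the HFD group it had 12, 6, 6, and 23 counts, or 0.519, 0.249, 0.265, and 1.06 CPM. The groups did not overlap, and the lowest control mouse was still above the highest HFD mouse. The HFD + RSV mice had 0.492, 0.477, 8.83, and 0.224 CPM, and the HFD + metformin mice had 3.13, 0.412, 89.9, and 0.323 CPM. In each treated group, mouse 3 stood alone, while the other mice of the HFD + RSV group lay within the range of the HFD group or just below it and 1 other metformin mouse, mouse 1, lay above it.

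Per length, the same spread took Ucp1 from 0.111 FPKM, rank 17243 of the gene names in HFD + RSV mouse 4, to 247 FPKM, rank 143, in control mouse 3. The highest and lowest mice differed 1820-fold in CPM, and the control mice alone differed 131-fold. The fitted log2FC of HFD against control was -7.79 ± 2.23 (SE, n = 4 mice a group), and the medians, 0.392 and 25.9 CPM, differed 66.0-fold. Without control mouse 3, the log2FC was -5.14. For HFD + RSV against HFD it was 2.27 ± 2.15, which turned to -0.37 without HFD + RSV mouse 3, and the medians were 0.484 and 0.392 CPM. For HFD + metformin against HFD it was 5.49 ± 2.10 and 1.17 without HFD + metformin mouse 3, with medians of 1.77 and 0.392 CPM. Each of the treated comparisons uses the same HFD mice, and in both of them the size of the Ucp1 value rested on 1 mouse.

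Cidea, the lipid droplet protein, followed the same mice at a higher floor. The control mice had 41.7, 70.0, 285, and 21.5 CPM, and the HFD mice had 0.779, 1.12, 1.02, and 2.39 CPM. Again the groups did not overlap, and the HFD mice lay close together. The HFD + RSV mice had 2.06, 0.867, 13.4, and 2.50 CPM, and the HFD + metformin mice had 4.23, 2.10, 81.4, and 0.898 CPM. The highest mouse of each treated group was the one that was highest in Ucp1. The log2FC was -6.30 ± 1.53 for HFD against control and -5.07 without control mouse 3. It was 1.83 ± 1.40 for HFD + RSV against HFD and 0.45 without HFD + RSV mouse 3. It was 4.06 ± 1.42 for HFD + metformin against HFD and 0.82 without HFD + metformin mouse 3. The median CPM was 55.8 for control, 1.07 for HFD, 2.28 for HFD + RSV, and 3.17 for HFD + metformin.

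Elovl3, the fatty acid elongase, was the scarcest of these 3. The control mice had 27, 168, 1253, and 15 counts, whereas the HFD mice had 0, 0, 3, and 0. A count of 0 in a library allows up to 3 counts, so these HFD values are at the floor of detection. Summed over the mice of each group and scaled to library size, the control group held 476 times as many counts as the HFD group (1463 against 3 counts, exact 95% interval 163 to 2310, covering counting error only). Without control mouse 3 the ratio was 94.1. The HFD + RSV mice had 0, 15, 7, and 1 counts, a ratio to HFD of 7.77 (interval 2.35 to 40.4), which was 3.63 without HFD + RSV mouse 2. The HFD + metformin mice had 6, 2, 32, and 2 counts, a ratio of 13.3 (interval 4.25 to 67.1), which was 4.20 without HFD + metformin mouse 3. These intervals leave out the spread between mice, so an interval above 1 is not a test of either treatment. In the fit, which includes that spread, the log2FC against HFD was 2.76 ± 2.41 with RSV and 3.57 ± 2.21 with metformin. In the HFD + RSV group the highest Elovl3 mouse was mouse 2 and not mouse 3, unlike for Ucp1 and Cidea.

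Ucp1, Cidea, and Elovl3 were each lower in 4 of 4 HFD mice than in any control mouse. In this comparison 9.44% of all 15364 genes tested were lower in the HFD group without overlap, and since the contrast had chosen the genes, nothing is read from the count. In the treated comparisons, all 6 genes overlapped with the HFD group. The share of all genes that overlapped there is not given, so nothing is read from this either.

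The 4 mice highest in Ucp1 CPM were control mouse 3, HFD + metformin mouse 3, control mouse 2, and control mouse 1. The same 4 mice were the highest 4 in Cidea and the highest 4 in Elovl3, in which HFD + metformin mouse 3 ranked behind the other 3. The ratio of Ucp1 to Cidea in FPKM was not fixed. It was 1.02 in control mouse 3, 0.785 in HFD + metformin mouse 3, 0.405 in control mouse 2, and 0.103 in control mouse 4, so Ucp1 was near Cidea where both were abundant and well below it in most other mice. The lowest ratio was 0.0635, in HFD + RSV mouse 4. Elovl3 was at most 0.134 of Cidea among the control mice.

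These levels were set beside Adipoq, the adiponectin gene, which brown and white adipocytes both express. Adipoq was 66.4, 49.6, 270, and 101 FPKM in the control mice, 12.7, 6.84, 38.6, and 64.9 in the HFD mice, 21.2, 46.3, 74.2, and 10.4 in the HFD + RSV mice, and 126, 2.37, 279, and 15 in the HFD + metformin mice. The Adipoq values of the groups overlapped. Adipoq was about as high in HFD + metformin mouse 3 as in control mouse 3, whereas Ucp1 was 55.7 FPKM in the former and 247 in the latter. HFD + metformin mouse 1 had an Adipoq level that only control mouse 3 and HFD + metformin mouse 3 exceeded with 1.72 FPKM of Ucp1. Per unit of Adipoq, Ucp1 was 0.0900, 0.449, 0.913, and 0.0173 in the control mice and 0.0200, 0.0175, 0.00341, and 0.00885 in the HFD mice. On this scale control mouse 4 lay within the HFD range, so the groups overlapped for Ucp1. Cidea per Adipoq was 0.443, 1.11, 0.897, and 0.167 in the control mice and 0.0421, 0.111, 0.0184, and 0.0281 in the HFD mice, without overlap. In the HFD + RSV group it was 0.0720, 0.0141, 0.133, and 0.168, and in the HFD + metformin group 0.0258, 0.634, 0.254, and 0.0424. The metformin value of 0.634 was from mouse 2, in which Adipoq had only 98 counts.

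**Figure D2:**
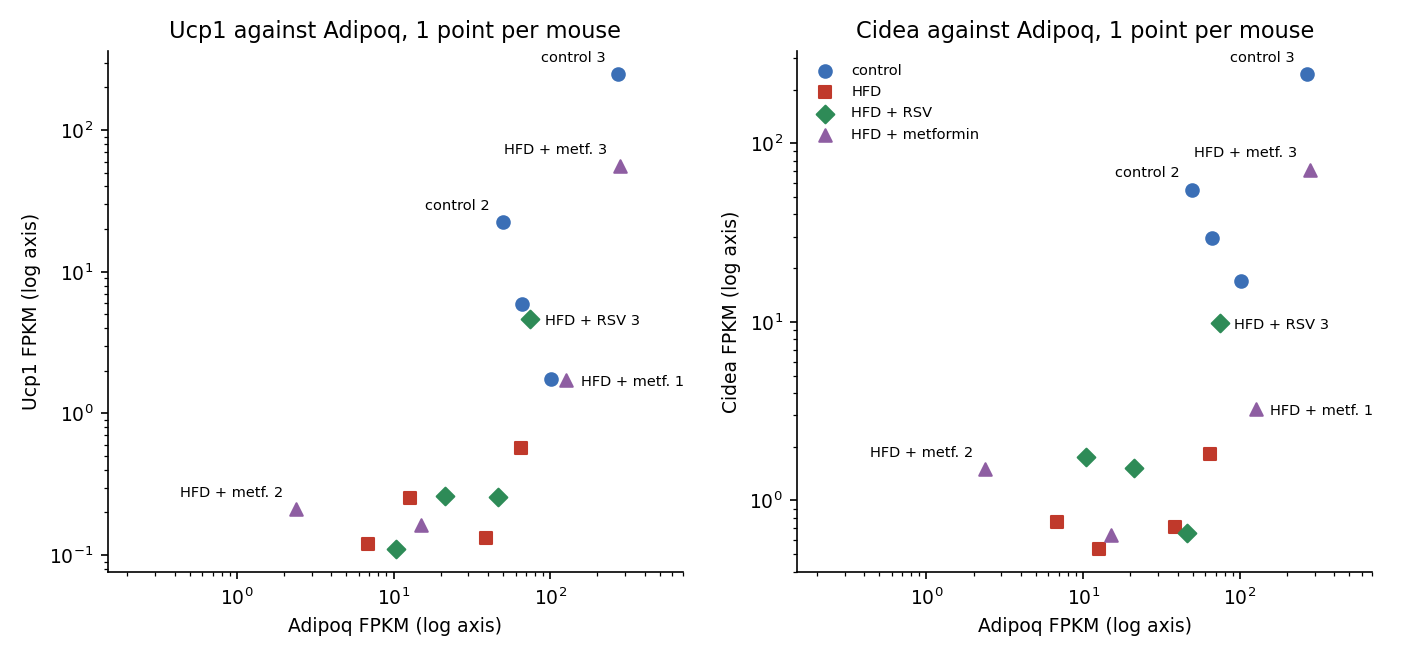
Ucp1 (left) and Cidea (right) FPKM against Adipoq FPKM on log axes, 1 point per mouse, colored by group, with some mice named. Between Adipoq levels of 49.6 and 126 FPKM the mice spread widely in Ucp1 and Cidea, and control mouse 3 lies above HFD + metformin mouse 3 at nearly the same Adipoq level.

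Cox8b did not follow this pattern. It was among the abundant genes of every library, at 106 to 271 FPKM and ranks 108 to 358, and its CPM differed 2.60-fold between the highest and the lowest mouse. The control mice had 95.9, 41.8, 92.2, and 48.0 CPM, and the HFD mice had 105, 88.4, 98.2, and 54.2 CPM. The HFD + RSV mice had 107, 96.8, 72.1, and 109 CPM, and the HFD + metformin mice had 103, 89.3, 96.1, and 73.8 CPM. All groups overlapped. The log2FC was 0.32 ± 0.27 for HFD against control, 0.15 ± 0.26 for HFD + RSV against HFD, and 0.07 ± 0.26 for HFD + metformin against HFD. None of the 4 mice highest in Ucp1 was among the 4 highest in Cox8b, and control mouse 2, which was the third in Ucp1, was the lowest of all in Cox8b.

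Cox8a, the form of the same subunit that most tissues use, differed from Cox8b in this. It had 33.3, 39.5, 116, and 36.3 CPM in the control mice and 14.1, 14.6, 17.2, and 21.4 CPM in the HFD mice. It had 17.0, 19.4, 26.0, and 17.2 CPM in the HFD + RSV mice and 25.2, 16.3, 75.8, and 16.8 CPM in the HFD + metformin mice. Its 2 highest mice were the 2 highest in Ucp1. In HFD against control its log2FC was -1.75 ± 0.50, which did not pass the test (adjusted P = 0.0702, range over 23 alternative settings 0.00687 to 0.232, edgeR). Cox8a was not one of the chosen genes and came from the list of oxidase subunits. The ratio of Cox8b to Cox8a in FPKM was 4.36, 1.60, 1.20, and 2.00 in the control mice and 11.3, 9.17, 8.65, and 3.84 in the HFD mice. It was 9.52, 7.56, 4.19, and 9.60 in the HFD + RSV mice and 6.18, 8.30, 1.92, and 6.64 in the HFD + metformin mice. Control mouse 1, the fourth in Ucp1, lay above HFD mouse 4, so the control and HFD groups overlapped.

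**Figure D3:**
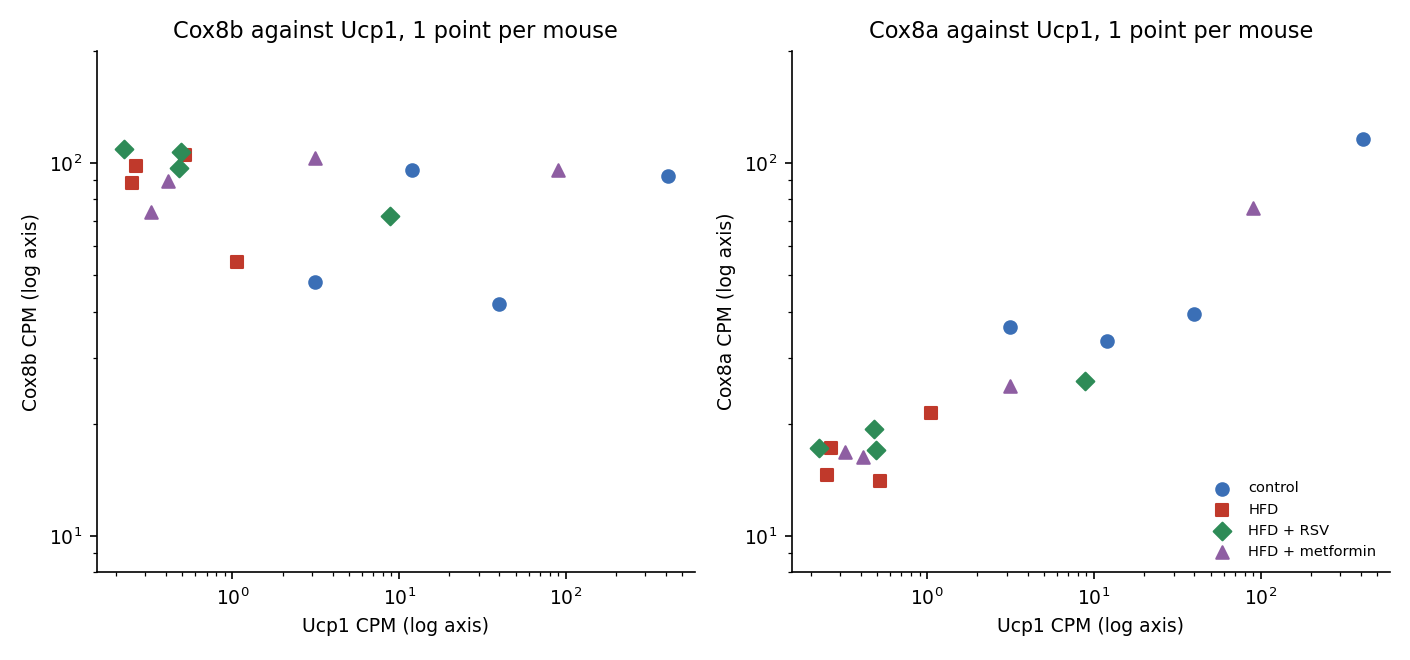
CPM of Cox8b (left) and Cox8a (right) against Ucp1 CPM on log axes, 1 point per mouse, colored by group. Cox8b stays between 41.8 and 109 CPM over the whole range of Ucp1, and Cox8a reaches 75.8 and 116 CPM in the 2 mice with the most Ucp1.

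Dio2, the activating deiodinase, was low in every mouse, at 0.151 to 1.84 FPKM. The control mice had 1.57, 4.83, 10.8, and 5.98 CPM, and the HFD mice had 2.94, 3.74, 2.48, and 1.29 CPM. Control mice 2, 3, and 4 lay above all HFD mice, and control mouse 1 lay among them. The HFD + RSV mice had 3.76, 0.997, 2.31, and 2.77 CPM, and the HFD + metformin mice had 1.32, 4.01, 4.65, and 2.26 CPM. The log2FC was -1.15 ± 0.53 for HFD against control, and -0.67 without control mouse 3. It was -0.09 ± 0.54 for HFD + RSV against HFD and 0.23 ± 0.53 for HFD + metformin against HFD, and both changed sign when 1 treated mouse was left out, to 0.17 without HFD + RSV mouse 2 and to -0.03 without HFD + metformin mouse 3. Of the 4 mice highest in Dio2, 3 were among the 4 highest in Ucp1.

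Prdm16, the regulator of brown fat identity, was present at a low and even level, 0.952 to 3.23 FPKM. The control mice had 3.09, 3.44, 4.42, and 3.38 CPM, and the HFD mice had 2.64, 2.08, 2.78, and 3.58 CPM. HFD mouse 4 lay among the control mice and the other 3 lay below them. The HFD + RSV mice had 3.49, 3.64, 2.71, and 3.40 CPM, and the HFD + metformin mice had 4.84, 4.12, 8.58, and 1.87 CPM. The log2FC was -0.37 ± 0.33 for HFD against control, 0.26 ± 0.33 for HFD + RSV against HFD, and 0.80 ± 0.33 for HFD + metformin against HFD. The last was 0.37 without HFD + metformin mouse 3, the mouse with the most Adipoq. The SD of log2 CPM over the 16 mice was 0.50 for Prdm16, 0.43 for Cox8b, and 0.88 for Dio2, against 3.24 for Ucp1, 2.72 for Cidea, and 2.56 for Elovl3.

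**Figure D4:**
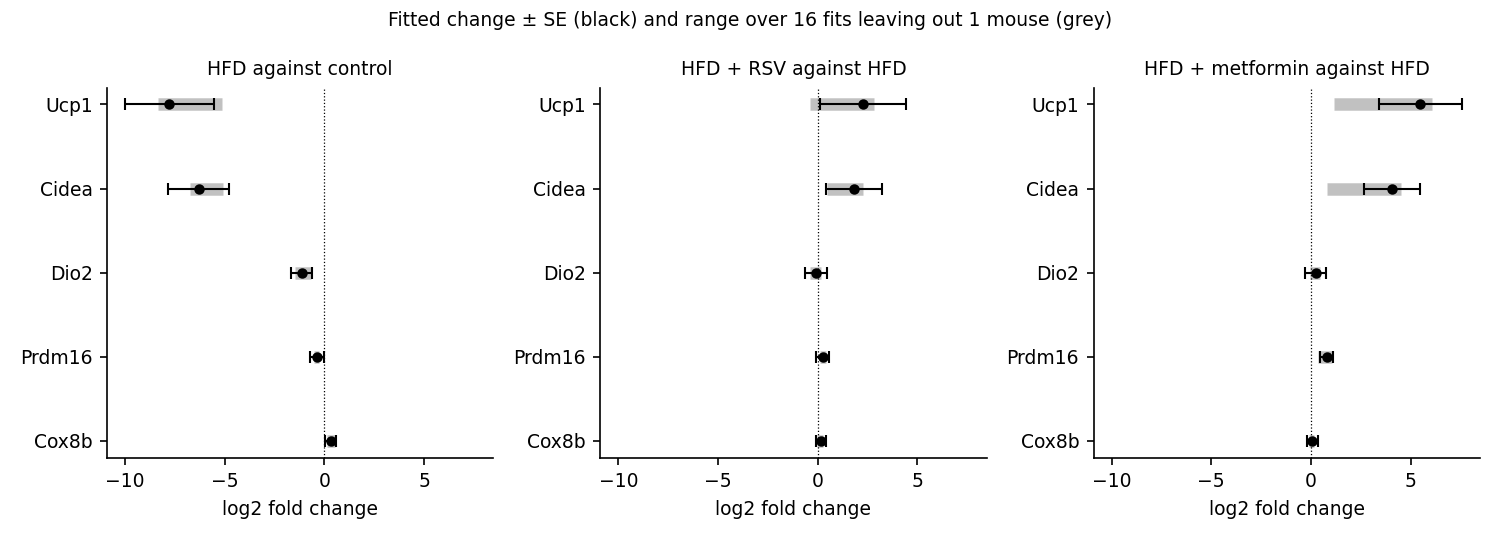
Fitted log2 fold change of 5 of the genes in each comparison (black points, bars are the SE) and the range over 16 fits that each leave out 1 mouse (grey bars). Elovl3 is not drawn because its HFD counts are at the floor. The grey bars of Ucp1 reach from -0.37 to 2.84 for HFD + RSV against HFD and from 1.17 to 6.07 for HFD + metformin against HFD.

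The genes whose log2 CPM was most like that of each gene over the 16 mice are given as a description. The mice share tissue and libraries, and a few mice set the range, so r is also given without the 2 mice farthest from the median. For Ucp1 the closest genes were Otop1, a proton channel gene of brown fat (r = 0.978, and 0.954 without those 2 mice), Cables1 (0.972 and 0.938), Fam13a (0.964 and 0.922), Irf4, a transcription factor of fasting and thermogenesis in adipocytes (0.964 and 0.941), and Tcn2 (0.962 and 0.908). For Cidea they were Fam13a (0.976 and 0.962), Acsf2 (0.967 and 0.945), Dpyd (0.961 and 0.940), Ucp1 (0.960 and 0.930), and Ehhadh, an enzyme of peroxisomal fatty acid oxidation (0.955 and 0.951). For Elovl3 they were Crls1, the cardiolipin synthase (0.951 and 0.856), Gm4735 (0.947 and 0.825), Sec14l4 (0.945 and 0.899), Elovl6, which lengthens shorter fatty acids (0.943 and 0.885), and Taldo1 (0.935 and 0.861). Among the 15364 genes tested, 184 had r above 0.9 with Ucp1, 103 with Cidea, 40 with Elovl3, 1 with Dio2, 4 with Prdm16, and 0 with Cox8b. These numbers are over all 16 mice and were not adjusted for the spread of each gene. The SD of log2 CPM was 3.24 for Ucp1 and 0.43 for Cox8b, so the numbers are not compared between genes. The genes closest to Dio2 were Actr2 (0.920 and 0.875), Plbd1 (0.890 and 0.792), Slc25a20 (0.878 and 0.797) and Cpt2 (0.873 and 0.773), both of the carnitine route that brings fatty acids into mitochondria, and Dhx15 (0.865 and 0.897). Those closest to Prdm16 were Apol6 (0.928 and 0.812), Atp2a3 (0.925 and 0.806), Tmppe (0.910 and 0.785), Ptpn14 (0.905 and 0.797), and Cspg4 (0.896 and 0.738). The closest to Cox8b was Atg4c, at 0.847, which fell to 0.608 without those 2 mice, followed by Fbxo11 (0.834 and 0.673), G3bp2 (0.819 and 0.634), Gm3854 (0.807 and 0.421), and Ube2d2a (0.791 and 0.552).

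The other genes of these pathways were tested for each comparison, with calls at an adjusted P below 0.05 over all 15364 genes (edgeR, Benjamini-Hochberg). In HFD against control 2.43% of all genes were called, 203 higher and 171 lower. That count rested on single mice. It fell to 16 without control mouse 2, and it rose to 1588 without HFD + metformin mouse 3, a mouse outside the comparison that enters the shared estimate of spread. An unadjusted P below 0.05 was reached by 3715 genes. In HFD + RSV against HFD 0.0% were called (0 genes, with 725 at an unadjusted P below 0.05 and 8 called by DESeq2), and in HFD + metformin against HFD 0.013% (2 genes). Some genes stand in more than 1 list, so the numbers given for different lists share genes. Of 189 genes in the lists below, each counted once, 8 were called in HFD against control by edgeR (80 at an unadjusted P below 0.05, and 52 by DESeq2). In either treated comparison 0 were called by edgeR or DESeq2 (21 at an unadjusted P below 0.05 with RSV and 26 with metformin). Of the 8 calls, all were lost without control mouse 2, HFD mouse 1, or HFD mouse 2, 7 were lost without control mouse 3, HFD mouse 3, or HFD mouse 4, and 4 without control mouse 4, with adjusted P-values of at most 0.144. Without any 1 of the HFD + RSV mice 4 were lost, without HFD + metformin mouse 1 or 2 it was 3 or 2, and without control mouse 1 or HFD + metformin mouse 3 or 4 it was 0. The 8 fold changes kept their sign in all 23 alternative settings.

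Of 25 other brown adipocyte genes tested, 2 fell in the HFD group, 0 rose, and 23 did not pass. Mpzl2, an adhesion protein gene, fell by 3.80 ± 0.71 on the log2 scale (adjusted P = 0.0225), from 9.81 ± 5.85 to 0.699 ± 0.0551 CPM (SD, n = 4), and was called in 10 of 16 fits that left out 1 mouse. P2rx5, a purine receptor gene used as a brown fat surface marker, fell by 0.87 ± 0.21 (adjusted P = 0.0474) and was called in 3 of them. Kcnk3, a potassium channel gene, had a log2FC of -4.38 ± 1.25 (adjusted P = 0.0681) and Acot11, a thioesterase gene induced in brown fat, -1.89 ± 0.48 (adjusted P = 0.0544). The median of the 25 was -1.03, and 22 of the 25 were negative, beside a median of -0.018 over all genes. At an unadjusted P below 0.05 there were 14, and DESeq2 called 13. When 1 mouse was left out, the number called by edgeR ranged from 0 (without control mouse 2 or 3 or any 1 of the HFD mice) to 12 (without HFD + metformin mouse 3). Zic1 and Lhx8, transcription factor genes that separate classical brown from beige fat, had 0 to 94 and 0 to 20 counts. Of 8 beige genes tested, 0 were called by edgeR (4 at an unadjusted P below 0.05, and 1 by DESeq2), with a median of -0.62. The closest was Slc27a1, a fatty acid transporter gene that muscle also expresses, at -0.97 ± 0.29 (adjusted P = 0.0740).

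Of the 22 white and general adipocyte markers, 0 were called in HFD against control by edgeR (13 at an unadjusted P below 0.05, and 7 by DESeq2), although 21 of 22 were negative and their median, -1.86, was further from 0 than that of the other brown genes. The 1 positive marker was Lep, the leptin gene, at 1.40 ± 1.14 (adjusted P = 0.475, edgeR). It was at 11.3 ± 10.6 CPM in the control group and 29.6 ± 23.7 CPM in the HFD group. The log2FC ranged from -3.60 to 1.40 over the 22 markers and from -5.29 to 0.29 over the other brown genes, so the medians do not rank brown against white fat. The smallest P-values were those of Dgat2, which makes triglyceride (log2FC -2.26 ± 0.57, adjusted P = 0.0534), Scd1, a desaturase gene (-3.60 ± 0.99, adjusted P = 0.0644), Lpl, the lipase that takes up circulating fat (-1.47 ± 0.41, adjusted P = 0.0668), and Pnpla2, the first lipase of stored triglyceride (-1.42 ± 0.40, adjusted P = 0.0676). Adipoq itself was at -1.84 (adjusted P = 0.301). In HFD + metformin against HFD all 22 were positive with a median of 1.53, and 0 were called. Without HFD + metformin mouse 3, Adipoq went from 1.59 to 0.57 and Dgat2 from 1.45 to 0.56 in that comparison. In HFD + RSV against HFD 18 of 22 were positive with a median of 0.28.

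The relatives of Elovl3 held the smallest adjusted P-value of the 189 genes, that of Elovl6. Of 10 genes of fatty acid elongation tested, 2 fell in the HFD group and 0 rose (8 at an unadjusted P below 0.05, and 4 called by DESeq2), with a median of -1.17. Elovl6 fell by 6.05 ± 1.02 (adjusted P = 0.0177), from 103 ± 90.9 to 1.55 ± 0.736 CPM, and was called in 13 of 16 fits that left out 1 mouse. Elovl5, which lengthens polyunsaturated fatty acids, fell by 1.25 ± 0.25 (adjusted P = 0.0289), from 35.7 ± 13.9 to 15 ± 0.949 CPM, and was called in 10. Without control mouse 3 these values were -5.31 and -0.99. In HFD + metformin against HFD, Elovl6 had a log2FC of 1.89 ± 0.93 and 0.17 without HFD + metformin mouse 3. Elovl6 was already among the genes most like Elovl3 over these mice, so its fall is not independent of that likeness.

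Among 12 genes of thyroid hormone handling, the pathway in which Dio2 acts, 1 fell and 1 rose in the HFD group (6 at an unadjusted P below 0.05, and 6 called by DESeq2). Thrsp, a lipogenic target of thyroid hormone, fell by 3.46 ± 0.78 (adjusted P = 0.0423), from 121 ± 106 to 11.0 ± 1.99 CPM. Rxra, the partner of nuclear receptors, rose by 0.37 ± 0.09 (adjusted P = 0.0483), from 200 ± 24.5 to 260 ± 3.54 CPM. They were called in 5 and 3 of the 16 fits that left out 1 mouse. Of 16 genes of beta-adrenergic and cyclic AMP signalling, 1 rose (5 at an unadjusted P below 0.05, and 3 called by DESeq2). Adcy9, an adenylyl cyclase gene, rose by 0.65 ± 0.12 (adjusted P = 0.0250), from 83.7 ± 7.98 to 131 ± 9.99 CPM, and the list had a median of -0.08. Adcy3, the cyclase of adipocytes, was at -2.32 ± 0.76 (adjusted P = 0.0941), the opposite sign. Of 11 partners of PRDM16, 1 fell (5 at an unadjusted P below 0.05, and 3 called by DESeq2). Mecom, a close relative of Prdm16, fell by 0.48 ± 0.12 (adjusted P = 0.0465), from 16.4 ± 0.513 to 11.7 ± 0.558 CPM, and was called in 5 of the 16 fits. Ebf2, which recruits PPARG in brown precursors and was also among the other brown adipocyte genes, was at -1.03 ± 0.31 (adjusted P = 0.0791). The list median was -0.07.

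The next lists held 0 calls by edgeR. In the UCP family and related carriers (7 tested, 2 at an unadjusted P below 0.05, and 2 called by DESeq2) the median was -0.14, with Slc25a5, a nucleotide carrier gene, at -1.14 ± 0.31 (adjusted P = 0.0635) and Ucp2 at -0.75 ± 0.25 (adjusted P = 0.0962). In the CIDE and lipid droplet genes (10 tested, 5 at an unadjusted P below 0.05, and 1 called by DESeq2) the median was -0.79, and in the cytochrome c oxidase subunits (16 tested, 2 and 2) it was -0.04. Besides Cox8a, the subunit gene Cox6a1, also the form of tissues other than muscle, was at -2.17 ± 0.64 (adjusted P = 0.0751). In the genes of heat production without UCP1 (13 tested, 6 and 4) the median was 0.03, with Pm20d1, a secreted enzyme of N-acyl amino acids, at -2.45 ± 0.70 (adjusted P = 0.0676) and Atp2a2, the calcium pump of slow fibres and of many other cells, at -2.01 ± 0.58 (adjusted P = 0.0715).

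**Figure D5:**
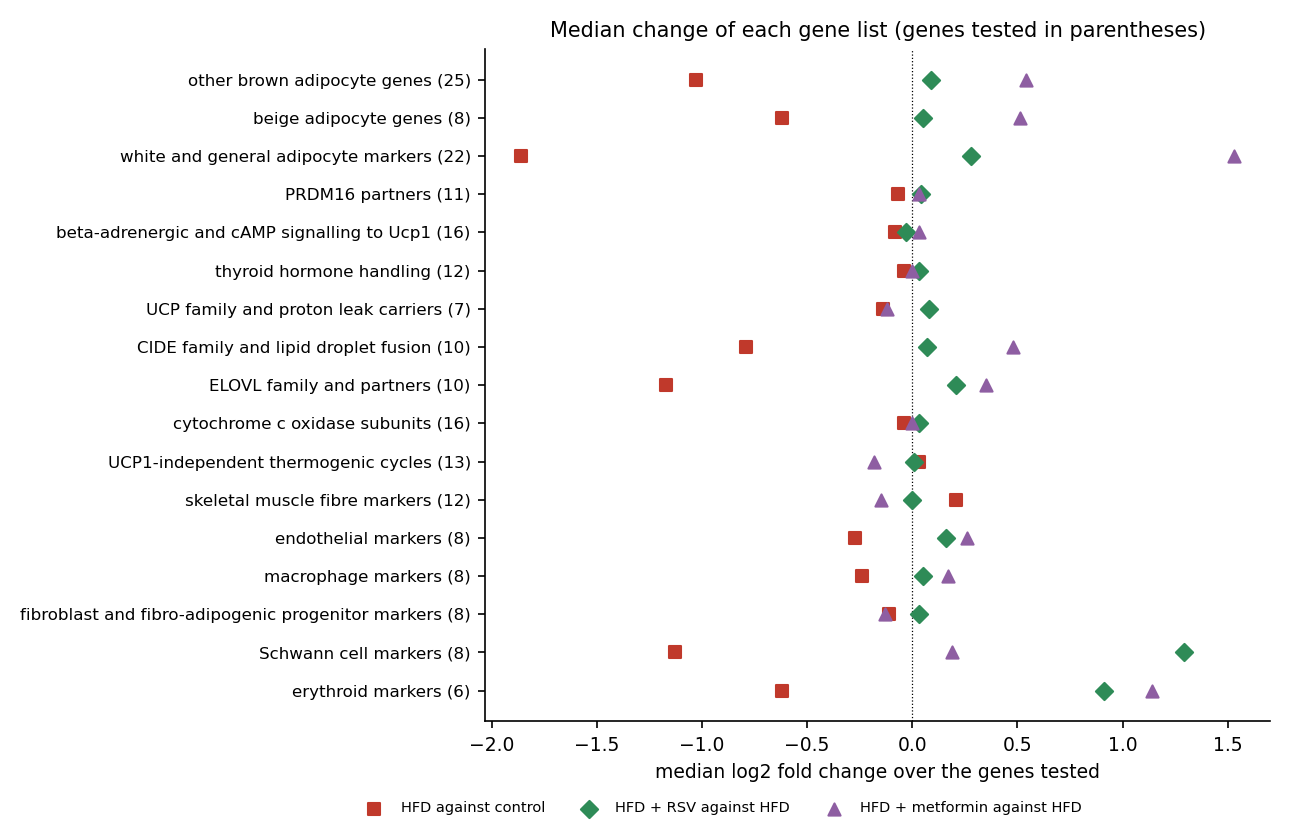
Median log2 fold change over the tested genes of each list with more than 1 gene tested (number in parentheses) in the 3 comparisons, with a dotted line at 0. Of the lists drawn, in HFD against control the white and general adipocyte markers (-1.86), elongation genes (-1.17), Schwann cell markers (-1.13), and other brown genes (-1.03) lay furthest to the left.

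Markers of muscle fibres and of other cells in the tissue were read in the same fit. The summed level of the fibre markers was lowest in the mice with the most Ucp1, control mouse 3 (188000 CPM) and HFD + metformin mouse 3 (199000 CPM). With Acta1, the muscle actin gene, r was -0.76 for Ucp1 and -0.79 for Prdm16. Without the 2 mice farthest from the median it was -0.45 and -0.42. In HFD against control, the median was 0.21 over 12 fibre markers, with 0 called by edgeR (5 at an unadjusted P below 0.05, and 5 by DESeq2). Among them, genes of slow fibres were negative without passing the test, as for Myh7, the slow myosin (-4.46 ± 1.45, adjusted P = 0.0941), and Tnnt1 (-3.44 ± 1.01, adjusted P = 0.0739). Myh7 was at 2.81, 917, 457, and 523 CPM in the control mice and 17.4, 6.61, 59.4, and 2.71 CPM in the HFD mice, and control mouse 1, which was the fourth in Ucp1, was within the HFD range. Schwann cell markers were negative in 8 of 8 (median -1.13, summed level 65.2 to 221 CPM among control and 46.4 to 67.3 among HFD mice). In HFD + RSV against HFD they were positive in 8 of 8 (median 1.29), with 44.3 to 422 CPM in the HFD + RSV group. Erythroid markers had medians of -0.62, 0.91, and 1.14 in the 3 comparisons in the order given above, endothelial markers -0.27, 0.16, and 0.26, macrophage markers -0.24, 0.05, and 0.17, and fibroblast markers -0.11, 0.03, and -0.13. None of these markers was called by edgeR. Over the Schwann cell, erythroid, endothelial, macrophage, and fibroblast markers, the numbers at an unadjusted P below 0.05 were 4, 0, 3, 1, and 0 for HFD against control, and 6, 4, 1, 0, and 1 for HFD + RSV against HFD. They were 0, 6, 3, 0, and 0 for HFD + metformin against HFD. The part of the fibre markers and of these other markers in the values of the 6 genes was not tested.

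Transcripts in the lncRNA table were not used to choose the genes. Of those that overlapped one of the 6 genes or lay within 10 kb of it, 25 had rows, and 5 had counts enough to be tested. Among the lncRNAs, 1.61% of 17599 transcripts were called in HFD against control, 0.0114% in HFD + RSV against HFD, and 0.0% in HFD + metformin against HFD. Of the 5, 0 were called by edgeR in any comparison, and 0 reached an unadjusted P below 0.05 (smallest 0.111). NONMMUT050894.2, within the first part of Prdm16 (chr4:154630691-154636367), had 112, 278, 423, and 139 counts in the control mice, 78, 66, 60, and 199 in the HFD mice, 79, 132, 111, and 78 in the HFD + RSV mice, and 152, 122, 593, and 44 in the HFD + metformin mice. Its log2FC for HFD against control was -0.99 ± 0.66 (adjusted P = 0.474), and its highest mouse was the highest in Prdm16. ENSMUST00000136217, which lies 703 bases before Prdm16 (chr4:154637576-154644724), was also highest in that mouse, with 139 counts. ENSMUST00000145081, which overlaps Cidea on chromosome 18, so that its counts may hold reads of Cidea, had 57 counts in control mouse 3 and 24 in HFD + metformin mouse 3, at most 7 in any other mouse, and was too scarce to be tested. NONMMUT104790.1, which also overlaps Cidea and was tested, did not follow it. It had 13, 1, 4, and 0 counts in the control mice, 4, 12, 10, and 0 in the HFD mice, and 0 in HFD + metformin mouse 3 (log2FC 0.46 ± 1.38 for HFD against control). Within Prdm16, NONMMUT050879.2 was at 0.40 ± 0.24 and NONMMUT050880.2 at -0.02 ± 0.15 in that comparison. Counting by strand is not stated for these files, so reads of overlapping transcripts may be shared between a gene and its neighbor.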

How the data were processed

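Muscle RNA of 16 mice was sequenced, 1 library per mouse. RNA was depleted of ribosomal RNA, and the submitters' processing notes name fastp, HISAT2, and GRCm38. The authors estimated fragments per transcript with StringTie and deposited these expected counts, all of them whole numbers. The deposited FPKM values were within 1% of the count over transcript length and the total of both tables, without a scaling between mice, checked on mRNA values with at least 20 counts. Total counts were 20281801 to 34021101 per mouse.

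Counts were summed per gene name and 4 transcripts split over 2 lines were joined. edgeR 4.0.16 in R 4.3.3 was fitted to all 16 mice in 1 model (filterByExpr at 10 counts and a total of 15, TMM, robust quasi-likelihood, Benjamini-Hochberg), and again to the lncRNA table. The log2 CPM used a prior count of 2. The common coefficient of variation between mice was 0.261. The SE of a log2FC is the size of the log2FC over the root of its F statistic. The fit was tested on simulated data.

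The 6 genes and the lists were chosen with earlier results of these data known. All 6 genes are named. Of each list, at most 4 genes with the smallest P in a comparison and the first 4 as defining markers may be named, and of similar genes the 5 with the highest r. The lncRNAs near the 6 genes were named after their values were seen. Trarg1 was found under its older name Tusc5. The alternatives were DESeq2 1.42.0, RLE scaling, no filter, the 12 mice without metformin, only the 2 groups compared, library sizes over both tables, a fold minimum with an unadjusted P, leaving out each mouse, and, added after seeing the data, leaving out both mice with the highest Ucp1. P-values set a difference between groups against the spread between mice. In the main fit that spread was estimated over all groups and partly shared between genes. Intervals and floors cover counting error only.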

Additional observations from a re-analysis of the deposited data

Results flagged for a closer look

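Within each group of 4 mice, the gap between the extreme mouse and its neighbor was compared with the group's range in CPM (Dixon's test at 95%). A single high value weighs less on log2 CPM, where Ucp1 in the control mice was 3.58, 5.32, 8.67, and 1.68. In log2 CPM, Ucp1 was -0.79, -0.83, 3.16, and -1.69 in the HFD + RSV mice and 1.69, -1.01, 6.49, and -1.29 in the HFD + metformin mice. Results of the test on that scale are not given. The flags hold for CPM, and a mouse flagged here need not stand apart in log2 CPM. Of 24 groups, 6 genes in 4 groups, 7 had such a mouse. Chance gives about 1 in 20 for genes chosen without regard to their values, but these 6 were chosen by these values, so nothing is read from the number. Ucp1 stood apart in control mouse 3 (408 CPM), in HFD + RSV mouse 3 (8.83 CPM), and in HFD + metformin mouse 3 (89.9 CPM). Cidea stood apart in HFD + RSV mouse 3 (13.4 CPM) and in HFD + metformin mouse 3 (81.4 CPM). Elovl3 stood apart in control mouse 3 (49.0 CPM) and in HFD mouse 3 (0.133 CPM), where it had 3 counts and the other 3 HFD mice had 0, so that any count above 0 would have stood apart. Each of the 7 was the highest mouse of its group, and the CPM scale favors high outliers over low ones. Each is numbered 3, a number that follows the order of deposit and only names the mouse. Cox8b, Dio2, and Prdm16 had no such mouse.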

How the results depend on the processing

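The number of genes called in HFD against control was 374. It was 1544 by DESeq2, 158 when low counts were kept, 1616 in the 12 mice without metformin, 998 with only the 2 groups compared, and 759 (140 higher, 619 lower) at an unadjusted P below 0.05 with a fold minimum. Leaving out 1 mouse gave 16 to 1588. With RLE scaling, with library sizes over both tables, or without both mice with the highest Ucp1, it stayed within 1.5 times of 374. For HFD + RSV against HFD the number was 0, with 8 by DESeq2 and 166 by the unadjusted rule, and 0 to 1 when 1 mouse was left out. For HFD + metformin against HFD it was 2, with 31 by DESeq2, 1 with only the 2 groups compared, 271 by the unadjusted rule, 0 without both mice with the highest Ucp1, and 0 to 2 when 1 mouse was left out. The cause of these differences was not tested. Of 340 settings for the log2FC of the genes other than Elovl3, 330 moved it by less than 1 SD between mice and 332 kept its sign. Leaving out 1 mouse gave -8.37 to -5.14 for Ucp1 and -6.74 to -5.07 for Cidea in HFD against control, -0.37 to 2.84 and 0.45 to 2.26 in HFD + RSV against HFD, and 1.17 to 6.07 and 0.82 to 4.50 in HFD + metformin against HFD. Without both mice with the highest Ucp1, control mouse 3 and HFD + metformin mouse 3, Ucp1 was at -5.15 against control and 1.21 with metformin, and Cidea at -5.07 and 0.82. For Elovl3, given as a ratio of counts because a fitted fold at these counts depends on the prior count, leaving out 1 mouse gave 94.1 to 631 for control to HFD, 3.63 to 10.3 for HFD + RSV to HFD, and 4.20 to 17.8 for HFD + metformin to HFD, and leaving out both mice gave 94.1 for control and 4.20 for metformin. Other tools and filters were not applied to that ratio. Adipoq in HFD + RSV against HFD, 0.28, turned to -0.04 without HFD mouse 2 and to -0.27 without HFD + RSV mouse 3, within a range of -0.27 to 0.88 when 1 mouse was left out. Leaving out 1 mouse gave -0.01 to 0.27 and -0.10 to 0.17 for Cox8b, and -0.37 to 0.17 and -0.03 to 0.47 for Dio2, in the RSV and metformin comparisons. No paired analysis was possible because GEO's labels give these mice no numbers that pair them across groups. Depth limits Elovl3, which had at most 3 counts in each HFD mouse.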
